A study of Mus musculus with 9 samples.

Results

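The genes described here encode RNA polymerase II (Pol II), the general transcription factors that place it on promoters, and Mediator, the coactivator complex that links it to enhancer-bound factors. They were chosen by gene symbol alone: the numbered subunits of Pol II (Polr2), the factors TFIIA, TFIIB, TFIIE, TFIIF and TFIIH (Gtf2), the TBP-associated factors (Taf), the numbered Mediator subunits (Med) and Tbp, each with at least 90 counts summed over the 9 libraries. Of 34590 symbols in the files, 67 matched, and all 67 reached that floor and were tested, with summed counts between 1349 and 82651. They comprised 8 subunits specific to Pol II, 5 subunits shared with Pol I and Pol III, 7 members of TFIIA, TFIIB, TFIIE and TFIIF, 5 core subunits of TFIIH, 14 members of TFIID (Tbp included) and 28 Mediator subunits. Sequencing covered total RNA of the telencephalon, the embryonic forebrain region that gives rise to cerebral cortex and basal ganglia, of mouse embryos at E12.5, in midgestation. Libraries came from 5 wild-type embryos (WT) and from 4 embryos in which Lats1 and Lats2 had been deleted with Nestin-Cre (double knockout, dKO), all on a strain background labelled mixed lineage. Nestin-Cre acts in neural progenitors. Blood, vessel and mesenchymal cells of the tissue should keep both genes, but deletion by cell type was not measured. Lats1 and Lats2 are the Hippo pathway kinases that restrain the coactivators YAP and TAZ, and the series asks how far this pathway limits the output of the transcriptome as a whole. Neither litters, nor the Cre status of the WT embryos, nor which exons were deleted is given in the sources.

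Transcription of nuclear protein-coding genes starts when TFIID, built of the TATA-binding protein TBP and its associated factors, binds the core promoter. TFIIA, TFIIB, TFIIF with Pol II, TFIIE and TFIIH then join in turn. TFIIH opens the DNA and phosphorylates the tail of the largest Pol II subunit, Rpb1, which releases the enzyme into the gene. Mediator has a head and a middle module that touch Pol II, and a scaffold subunit that joins its modules. It also has a tail that receives many activators, and a detachable kinase module.

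Each library was seen in 2 ways. The relative level of a gene is its CPM value (counts scaled to a common library size by TMM), which compares it with the typical gene of the same library. The level per cell is its count per 10000 counts of ERCC RNA, a synthetic spike-in that was added in proportion to the number of cells. This reads as RNA per cell only if cell number and dose were equal between tubes, and in tissue fewer cells of a type cannot be told apart from less RNA in each. The libraries held 12906561 to 45803152 gene counts. Gene counts per spike-in count were 58.1 ± 6.10 in WT (SD, n = 5) and 79.1 ± 5.90 in dKO (n = 4), with no overlap (two-sided exact permutation p = 0.00794, the lowest possible with 126 assignments), and WT 1 and WT 5 alone against dKO gave an exact permutation p of 0.0667, the smallest for 15 assignments. The WT 2, 3 and 4 libraries stood apart from the other 6 by reads that fell in no gene (39.3% to 41.3% against 32.0% to 35.6%), so relative values, and counts of genes that rose per cell, are also given without them. Lats1 fell from 132 ± 4.55 to 59.8 ± 1.07 CPM, while the Lats2 count (27.0 and 43.4 CPM) checks nothing without knowledge of the deleted exons. Emx2, a transcription factor of the dorsal telencephalon, was at 34.1 ± 3.94 CPM in WT and 31.5 ± 4.52 CPM in dKO. Over 9 progenitor markers (3 called higher, 2 lower), summed levels ran from 1829 to 2229 CPM in WT and 3172 to 3585 CPM in dKO. The 8 neuronal markers (7 lower) summed to 2485 to 2978 CPM in WT and 2105 to 2275 CPM in dKO, and 8 erythroid markers (3 lower) to 827 to 1376 and 536 to 700 CPM. Endothelial, mesenchymal, microglial, choroid plexus and surface ectoderm lists overlapped between the groups, and no marker in the files was at 0 in every library. The part of these cell-type levels in the results below was not tested.

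Per counted cell, transcripts of most of the initiation machinery were higher in dKO. Of the 67 genes, 64 passed the test as higher, where 61.1% of all 17182 genes tested did. The p came from edgeR's quasi-likelihood test and had to be under 0.05 after Benjamini-Hochberg adjustment. That share includes genes with far lower counts than the members. With genes limited to a mean count of at least 50, 10082 of 13977 were called higher per cell. No member was called lower per cell, with 0 lower also at an unadjusted p under 0.05 and 0 by DESeq2 and by limma-voom; 0.698% of all genes were called lower. All 67 fold changes were above 0, as were 91.0% of those of all genes. Their median was 0.49 on the log2 scale (quartiles 0.42 and 0.53, range 0.20 to 0.69), beside 0.43 over all genes (quartiles 0.25 and 0.57), and 48 members lay above the median of all genes. Summed over the 67 genes, the libraries held 2219, 2007, 2567, 2461 and 2554 counts per 10000 spike-in counts in WT 1 to 5 and 2942, 3494, 3208 and 3386 in dKO 1 to 4. Every dKO library was thus above every WT library, by 1.38-fold on average. For 57 single genes the groups did not overlap per cell, as for 48.4% of all genes. Polr2a, Polr2k and Med15 were the 3 that did not pass. Without WT 2, 3 and 4, 54 of the 67 passed as higher, where 48.2% of all genes did, and the median was 0.45.

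**Figure D1:**
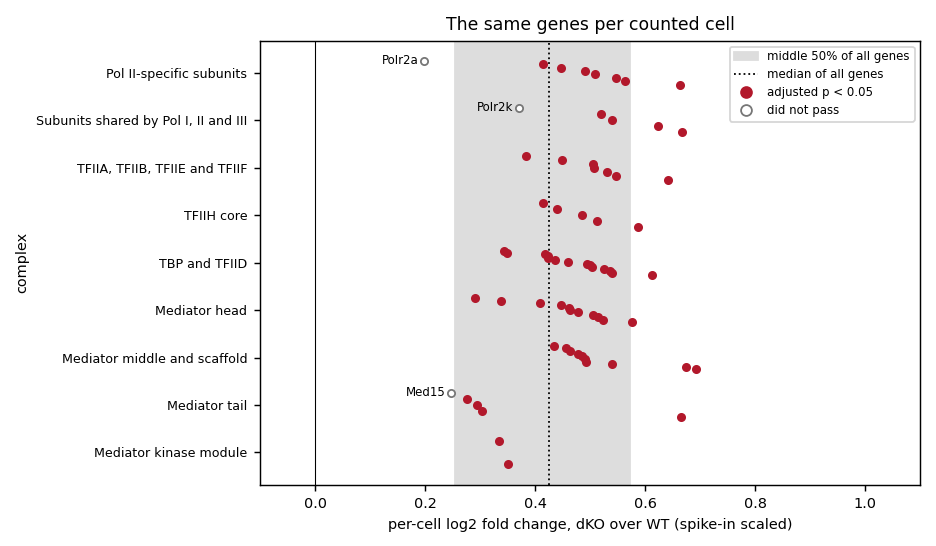
Per-cell log2 fold change (dKO over WT, scaled by spike-ins) of each of the 67 genes, by complex; filled points passed the test at an adjusted p under 0.05, open points did not, the dotted line is the median and the grey band the middle 50% of all genes. Most points sit right of the dotted line. Every complex except the Mediator middle and scaffold has points left of it. These include 4 of 5 tail subunits, both kinase module subunits, Polr2a, Tbp and Med27.

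Relative to the rest of the transcriptome, the machinery hardly moved as a whole. The 67 genes summed to 4055 ± 34.2 CPM over the WT libraries (SD, n = 5; 4026 to 4096) and to 4132 ± 54.7 CPM over the dKO libraries (n = 4; 4076 to 4203), 1.02-fold apart with overlapping libraries. Relative fold changes had a median of 0.05 (quartiles -0.01 and 0.10) and a range of -0.25 to 0.26, while those of all genes had quartiles of -0.18 and 0.14. For 42 members the fold change was under 0.1 in size, and for 7 it was over 0.2. In the relative fit 8 members rose (Polr2m, Polr2h, Gtf2e2, Gtf2h1, Taf7, Med14, Med21 and Med25) and 3 fell (Polr2a, Med23 and Med24) by edgeR at an adjusted p under 0.05. These are 11.9% and 4.48% of the members, where 13.7% of all genes were called higher and 12.0% lower, so called genes were no more frequent among the members than among all genes. Libraries of the 2 groups did not overlap for 10 members that were higher and 4 that were lower in dKO (12.6% and 9.74% of all genes). Without WT 2, 3 and 4, all 11 kept their sign, but only Med14 still passed (407 genes or 2.33% of all were then called higher and 0.972% lower). At an unadjusted p under 0.05, 5 members were higher and 4 lower in that smaller fit, beside 1786 and 1611 of the 17182 genes. The median of the members was 0.01 in that fit.

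**Figure D2:**
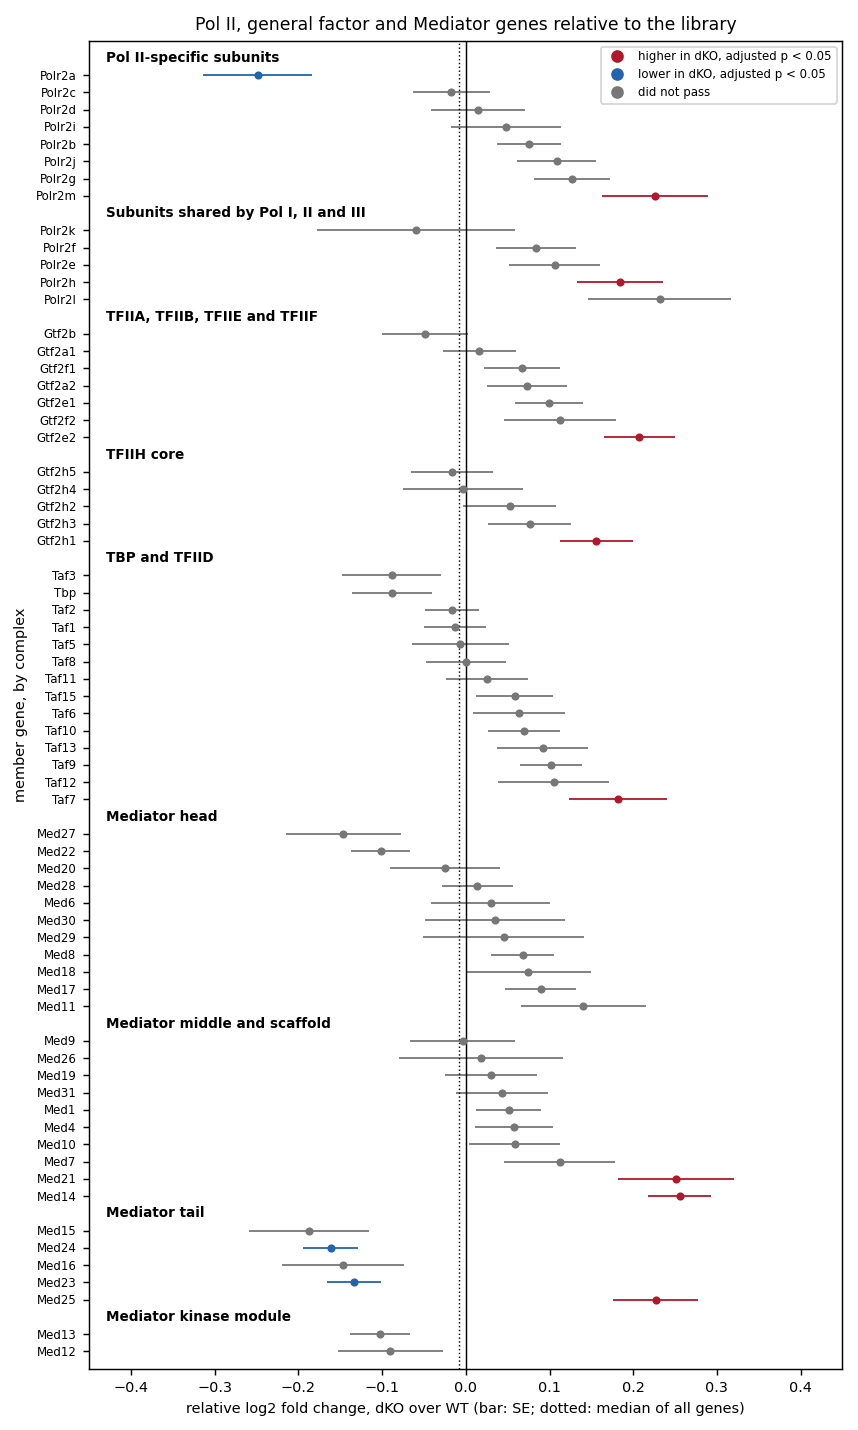
Relative log2 fold change (dKO over WT, TMM-scaled) of the 67 genes grouped by complex; points are estimates, bars the standard error, and the dotted line the median of all genes. The 8 red genes passed as higher and the 3 blue genes as lower, all between -0.25 and 0.26.

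Among all 13 Pol II subunits, the gene of the largest one fell relative to the library while Polr2m and Polr2h rose. Polr2a encodes Rpb1, which carries the catalytic centre and the tail that is phosphorylated during the transcription cycle. Its level was 125, 122, 118, 131 and 115 CPM in WT 1 to 5 and 88.7, 113, 104 and 105 CPM in dKO 1 to 4. All dKO libraries were below all WT libraries, with dKO 1 the lowest and dKO 2 only just below WT 5. On the relative log2 scale it fell by 0.25 (SE 0.06; edgeR, adjusted p = 0.0159). The value was -0.23 without WT 2, 3 and 4 (adjusted p = 0.217), and the call was also lost without WT 4 alone. Per cell Polr2a was at 71.0 ± 7.35 counts per 10000 spike-in counts in WT (SD, n = 5) and 81.6 ± 14.2 in dKO (n = 4), the smallest per-cell fold change of the 67 genes in the fit of all 9 libraries (0.20, SE 0.11, adjusted p = 0.128, edgeR). Leaving out dKO 1 raised that value to 0.31 (adjusted p = 0.0148, edgeR), so 1 library decided whether Polr2a passed per cell.

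Polr2b encodes Rpb2, the second largest subunit, which forms the active cleft with Rpb1. It stood at 215 ± 5.75 CPM in WT and 226 ± 9.90 CPM in dKO (relative log2 fold change 0.08, adjusted p = 0.171, edgeR) and rose per cell by 0.51. Per kilobase of transcript, Polr2a amounted to 0.362, 0.351, 0.345, 0.379 and 0.314 of Polr2b in WT 1 to 5 and 0.228, 0.307, 0.287 and 0.301 in dKO 1 to 4. This within-library ratio needs no scaling between libraries, and its groups did not overlap. It was chosen after the values had been seen and is given without a test.

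Because Polr2a was the Pol II subunit that fell, the 250 bases before its transcription start are shown, from the RefSeq promoter table on GRCm38.p6 (the counts were made on mm9), chr11:69758634-69758883, minus strand, 5′ to 3′. Capitals mark a TATA box (TATAAA), whose first base lies 33 bases before the start, and 3 GC boxes (GGGCGG), which begin 93, 70 and 55 bases before it.
Polr2a: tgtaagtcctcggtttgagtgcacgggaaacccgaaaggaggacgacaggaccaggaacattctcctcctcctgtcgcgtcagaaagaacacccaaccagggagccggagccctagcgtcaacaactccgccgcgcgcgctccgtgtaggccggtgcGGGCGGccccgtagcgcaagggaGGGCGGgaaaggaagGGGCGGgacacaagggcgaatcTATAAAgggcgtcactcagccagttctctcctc

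Polr2m, or Gdown1, is a dissociable Pol II subunit that makes the enzyme dependent on Mediator. It measured 166, 151, 142, 142 and 168 CPM in WT and 189, 190, 172 and 167 CPM in dKO. The groups overlapped, since dKO 4 lay between WT 1 and WT 5 while the other 3 dKO libraries were above the WT range. Its relative rise of 0.23 (log2, SE 0.06; edgeR, adjusted p = 0.0219) became 0.10 without WT 2, 3 and 4 (adjusted p = 0.487). Polr2g (Rpb7), which with Rpb4 forms a stalk on the enzyme, had a relative fold change of 0.13 that did not pass (adjusted p = 0.0608, edgeR). Summed over the 8 Pol II-specific subunits, levels were 1.04-fold apart relative to the library and 1.41-fold apart per cell.

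The 5 subunits shared by all 3 nuclear polymerases had a summed level of 98.0 to 105.5 CPM in WT and 108.2 to 111.9 CPM in dKO, without overlap, and a fold of 1.09. Per cell the fold of the sum was 1.48. Polr2h (Rpb8) rose, from 27.7, 28.5, 25.8, 26.5 and 25.8 CPM in WT to 31.5, 31.2, 29.2 and 30.2 CPM in dKO. Every dKO library was above the highest WT library. This is a relative log2 rise of 0.18 (SE 0.05; edgeR, adjusted p = 0.0217), and 0.19 without WT 2, 3 and 4 (adjusted p = 0.2). Polr2l (Rpb10), at 6.92 ± 0.582 CPM in WT and 8.16 ± 0.219 CPM in dKO, had a fold change of 0.23 that did not pass (adjusted p = 0.0678), and Polr2e (Rpb5) one of 0.11 (adjusted p = 0.175). Of these 5, only Polr2k (Rpb12), the least expressed at 5.03 ± 0.339 and 4.84 ± 0.669 CPM, did not pass per cell (0.37, adjusted p = 0.0672). In the relative fit, 7 of 19 genes for Pol I and Pol III subunits rose and 1 fell, and 18 of them rose per cell, where 13.7%, 12.0% and 61.1% of all genes did. Without WT 2, 3 and 4, 2 rose in the relative fit and 18 per cell (2.33% and 48.2% of all genes). No test was made of whether those counts differ from the Pol II ones.

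**Figure D3:**
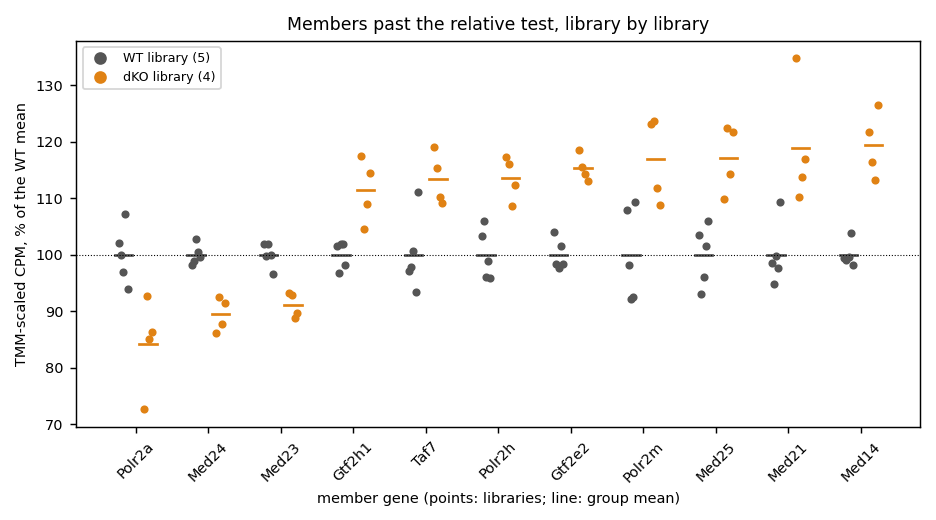
TMM-scaled CPM of the 11 genes that passed the relative test, as a percentage of each gene's WT mean; grey points are the 5 WT libraries, orange points the 4 dKO libraries, and lines the group means. Groups overlap for Polr2m and Taf7 and are separate for the other 9 genes.

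Of the 7 genes for TFIIA, TFIIB, TFIIE and TFIIF, all rose per cell (6 without WT 2, 3 and 4) and Gtf2e2 also rose relative to the library. Per cell, 61.1% of all genes rose, and 48.2% without those 3 libraries. Gtf2e2 encodes the small subunit of TFIIE, which recruits TFIIH and helps it open the promoter. It measured 45.5, 43.0, 42.6, 44.4 and 43.0 CPM in WT and 51.8, 50.5, 49.9 and 49.4 CPM in dKO. The ranges were narrow and well apart. Relative to the library the gene rose by 0.21 on the log2 scale (SE 0.04; edgeR, adjusted p = 0.00468), and had 0.18 without WT 2, 3 and 4, where it did not pass (adjusted p = 0.171). Gtf2e1, the large subunit of the same factor, had 0.10 (adjusted p = 0.0974), and Gtf2f2, the small subunit of TFIIF, 0.11 (adjusted p = 0.246). Summed levels of the 7 genes were 1.05-fold apart relative to the library and 1.42-fold per cell.

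Among the 5 core subunits of TFIIH, all of which rose per cell (4 without WT 2, 3 and 4), Gtf2h1 rose relative to the library. The per-cell shares of all genes were 61.1% and 48.2%. Gtf2h1 encodes p62, a scaffold of the core. It measured 62.5, 59.5, 62.7, 62.7 and 60.4 CPM in WT and 72.3, 64.3, 67.1 and 70.5 CPM in dKO, where dKO 2 lay closest to WT. Its relative log2 fold change was 0.16 (SE 0.04, adjusted p = 0.0222, edgeR), and 0.15 without WT 2, 3 and 4 (adjusted p = 0.259). Gtf2h3 (0.08), Gtf2h2 (0.05), Gtf2h4 (0.00) and Gtf2h5 (-0.02) did not pass.

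TFIIH also holds helicases and a kinase that the symbol rule did not take in. Of Ercc2, Ercc3, Cdk7, Ccnh and Mnat1, the 2 that rose relative to the library belong to the kinase, where 13.7% of all genes were called higher. The cyclin of the same kinase, Ccnh, had 0.11 and did not pass (adjusted p = 0.113, edgeR). Neither did Ercc2 (-0.03) nor Ercc3 (0.11). Cdk7, the kinase that phosphorylates the Rpb1 tail, rose from 69.7 ± 2.56 CPM (SD, 5 WT libraries) to 85.0 ± 5.59 CPM (4 dKO libraries), by 0.28 on the log2 scale (edgeR, adjusted p = 0.00188). Cdk7 still passed without WT 2, 3 and 4 (0.33, adjusted p = 0.0401, edgeR), where 2.33% of all genes were called higher. Mnat1, which assembles Cdk7 with its cyclin, rose from 24.2 ± 1.26 to 30.9 ± 2.21 CPM (0.35, adjusted p = 0.00194, edgeR; 0.30 and adjusted p = 0.0949 without WT 2, 3 and 4). All 5 rose per cell, and 4 did without WT 2, 3 and 4 (61.1% and 48.2% of all genes).

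TBP and its associated factors moved little relative to the library. All 14 rose per cell and 13 did without WT 2, 3 and 4, where 61.1% and 48.2% of all genes did. Their median per-cell log2 fold change was 0.48, and their summed relative levels were 1.02-fold apart. Tbp itself, which binds the TATA box and serves all 3 nuclear polymerases, was at 66.3 ± 3.18 CPM in WT and 62.3 ± 2.68 CPM in dKO (relative log2 fold change -0.09, adjusted p = 0.204, edgeR), and rose per cell by 0.34 (adjusted p = 0.00803). Taf7, a TFIID subunit that inhibits the acetyltransferase activity of Taf1, was the only one called in the relative fit. Its libraries read 39.0, 39.3, 40.5, 37.6 and 44.7 CPM in WT and 47.9, 46.4, 44.4 and 43.9 CPM in dKO. WT 5 was higher than dKO 3 and dKO 4. Its relative rise of 0.18 (log2, SE 0.06; edgeR, adjusted p = 0.04) did not pass in 11 of 21 alternatives. Taf9, a histone-fold factor shared with the coactivator SAGA, had a fold change of 0.10 (adjusted p = 0.0633), but 56.5% of its exon bases lie on the same strand within exons of Ak6, so its counts are uncertain.

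Outside the rule, Btaf1, the ATPase that removes TBP from DNA, rose from 161 ± 2.15 CPM to 200.4 ± 15.4 CPM (0.31, adjusted p = 0.000942, edgeR; 0.29 and adjusted p = 0.0612 without WT 2, 3 and 4). The TBP-like factor Tbpl1 had -0.11 (adjusted p = 0.0792). Taf4b, a relative of the TFIID subunit Taf4 that the files list as Taf4a, was at 4.00 ± 0.852 CPM in WT and 4.97 ± 0.380 CPM in dKO (0.34, adjusted p = 0.108), and Taf9b had 0.13 (adjusted p = 0.238). Among 10 genes for Pol II assembly factors and phosphatases of the Rpb1 tail, Ssu72, one of the phosphatases, rose (0.14, adjusted p = 0.0432, edgeR), and the elongation factor Tcea1 had 0.15 (adjusted p = 0.0551). Of all 31 such partners, 29 could be tested. In the relative fit 4 rose and 2 fell (13.8% and 6.9%, beside 13.7% and 12.0% of all genes). Per cell 28 rose, where 61.1% of all genes did. Without WT 2, 3 and 4 only Cdk7 rose relative to the library (2.33% of all genes), and 25 rose per cell (48.2% of all genes).

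The modules of Mediator had summed levels that were higher, level or lower in dKO relative to the library. Summed levels of its 10 middle and scaffold subunits were 496.9 to 509.7 CPM in WT and 523.2 to 564.5 CPM in dKO, a fold of 1.08. Much of this rise came from Med14, with means of 130 CPM in WT and 155 CPM in dKO. In the relative fit 8 of the 10 were not called, and their median log2 fold change was 0.05, as for all members. Sums of the 5 tail subunits were 365.4 to 377.6 CPM in WT and 342.3 to 363.8 CPM in dKO, a fold of 0.945. For the 2 kinase module subunits they were 391.6 to 407.4 and 364.5 to 379.9 CPM, a fold of 0.933. In none of these 3 modules did the summed libraries of the groups overlap. Neither kinase module gene passed the relative test, though, and the tail held 2 genes that fell and 1 that rose. Over all 28 Mediator genes, 10.7% were called higher and 7.14% lower in the relative fit. Among all genes these shares were 13.7% and 12.0%, so calls were no more frequent in Mediator. The 11 head subunits summed to 418 ± 6.33 CPM in WT and 418 ± 4.16 CPM in dKO. Per cell, 10 middle and scaffold, 11 head, 4 tail and 2 kinase module genes rose, and 9, 8, 2 and 1 without WT 2, 3 and 4. The shares of all genes that rose per cell were 61.1% and 48.2%. The per-cell folds of the sums were 1.46 for the middle and scaffold, 1.36 for the head, 1.28 for the tail and 1.26 for the kinase module. The modules were not tested against one another.

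Med14, the scaffold that joins head, middle and tail, had a relative rise that passed in 20 of 21 alternatives, more than any other of the 8 genes that rose. Its libraries read 129, 129, 130, 135 and 128 CPM in WT and 158, 151, 147 and 165 CPM in dKO. The WT values lay close together and every dKO library was well above them. It rose by 0.26 on the relative log2 scale (SE 0.04; edgeR, adjusted p = 0.000903), and by 0.26 without WT 2, 3 and 4 (adjusted p = 0.0423). Per cell Med14 rose by 0.69 (SE 0.11), the highest value of the members in the fit of all 9 libraries. Med14, Med12 and Taf1 are X-linked, and 2 of 5 WT and 3 of 4 dKO libraries were high in Xist, the RNA made from the inactive X chromosome (at least 1470 CPM, against at most 22.5 CPM in the others). Med14 measured 128.8 to 129.5 CPM in the Xist-high and 127.8 to 135 CPM in the Xist-low WT libraries, and 151.3 to 164.5 CPM in the Xist-high and 147.3 CPM in the Xist-low dKO library. With Xist level as a term in the fit, Med14 still passed (0.25, adjusted p = 0.00417, edgeR).

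The same stretch of the Med14 promoter is shown for comparison with that of Polr2a, chrX:12761974-12762223 on GRCm38.p6, minus strand, 5′ to 3′. Capitals mark an ETS factor core read on the other strand (CTTCCGG), which begins 225 bases before the start, and 2 GC boxes read on the other strand (CCGCCC), 188 and 167 bases before it. TATAAA does not occur in this window.
Med14: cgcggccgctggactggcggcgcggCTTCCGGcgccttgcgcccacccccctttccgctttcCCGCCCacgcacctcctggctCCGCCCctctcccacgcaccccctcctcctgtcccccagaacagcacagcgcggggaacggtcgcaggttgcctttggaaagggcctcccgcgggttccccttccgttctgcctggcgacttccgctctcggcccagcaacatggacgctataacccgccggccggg

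Med21, a small middle subunit that pairs with Med7, rose as well. It measured 20.3, 19.5, 20.5, 20.1 and 22.5 CPM in WT and 27.7, 22.6, 23.4 and 24.0 CPM in dKO. The groups were separate, although WT 5 and dKO 2 nearly met and dKO 1 lay above the rest. The gene rose by 0.25 in the relative fit (log2, SE 0.07; edgeR, adjusted p = 0.0212) and had 0.18 without WT 2, 3 and 4 (adjusted p = 0.36). Its partner Med7 had 0.11 and did not pass.

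In the tail, 2 of 5 subunits fell while Med25 rose, where 12.0% of all genes were called lower and 13.7% higher in the relative fit. Med24, which stabilises the tail together with Med16 and Med23, measured 111, 112, 116, 113 and 112 CPM in WT and 97.3, 104, 98.9 and 103 CPM in dKO. Every dKO library was below every WT library. Med24 fell by 0.16 on the relative log2 scale (SE 0.03; edgeR, adjusted p = 0.00503) and had -0.15 without WT 2, 3 and 4 (adjusted p = 0.151). Med23, a target of signal-regulated activators such as Elk1, measured 130, 128, 130, 128 and 124 CPM in WT and 119, 119, 114 and 115 CPM in dKO. These groups did not overlap either. Its relative log2 fold change was -0.13 (SE 0.03, adjusted p = 0.011, edgeR), with the same value without WT 2, 3 and 4 (adjusted p = 0.197). Per cell both genes passed as higher with all 9 libraries, Med24 at 0.28 (adjusted p = 0.0265) and Med23 at 0.30 (adjusted p = 0.0123, edgeR), values below the median of all genes. Med24 did not pass per cell without WT 2, 3 and 4 (0.29, adjusted p = 0.0705), nor without WT 1, WT 2, dKO 2, dKO 3 or dKO 4 (adjusted p = 0.0525 to 0.11), and Med23 did not without dKO 2 (0.26, adjusted p = 0.0612, edgeR).

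Med25, which receives activators such as the retinoic acid receptor, measured 63.3, 57.0, 58.8, 62.2 and 64.9 CPM in WT and 67.3, 74.9, 70.0 and 74.5 CPM in dKO. The lowest dKO library was above the highest WT library. Its relative log2 fold change was 0.23 (SE 0.05, adjusted p = 0.00804, edgeR), and 0.15 without WT 2, 3 and 4 (adjusted p = 0.273). Med15 and Med16, the remaining tail subunits, had -0.19 (adjusted p = 0.0758) and -0.15 (adjusted p = 0.167) and did not pass. Med15 did not pass per cell either (0.25, adjusted p = 0.103), but did when dKO 1 was left out (0.35, adjusted p = 0.0207, edgeR).

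The same values can be written as ratios per kilobase of transcript within a library, which need no scaling between libraries but pair genes already called higher with genes already called lower. Med14 amounted to 0.565 ± 0.0140 of Med24 in WT (SD, n = 5) and 0.754 ± 0.0414 in dKO (n = 4). Against Med23 the values were 0.723 ± 0.0196 and 0.948 ± 0.0507. Med25 per Med24 was 0.707 ± 0.0435 in WT and 0.924 ± 0.0178 in dKO. None of these 3 ratios overlapped between the groups. The pairs were picked after the values had been seen, so no test is attached.

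**Figure D4:**
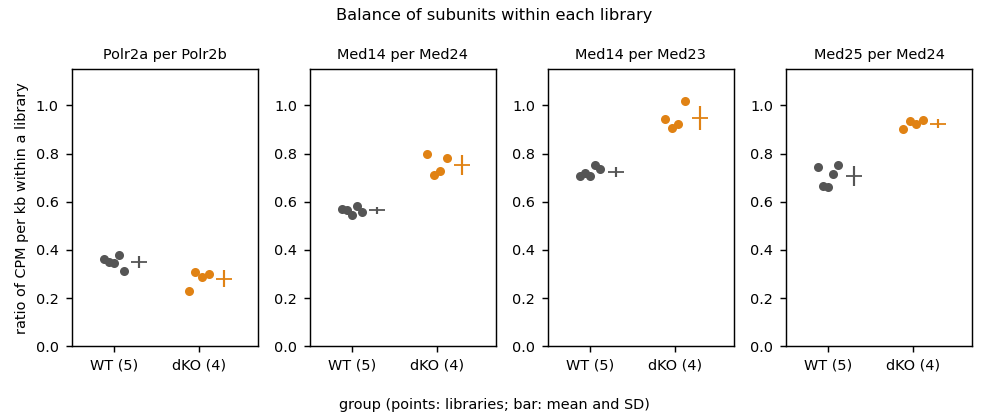
Ratios of CPM per kilobase between pairs of subunits within each library, for WT (grey, 5 libraries) and dKO (orange, 4 libraries); points are libraries and crosses the mean with SD. Polr2a per Polr2b was lower in dKO (0.281 against 0.351), and the 3 Mediator ratios were higher.

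No subunit of the Mediator head passed the relative test by edgeR. At an unadjusted p under 0.05, 0 were higher and 1 lower, beside 3333 and 3197 of all 17182 genes. That 1 was Med22, at 91.0 ± 0.654 CPM in WT and 84.9 ± 3.56 CPM in dKO (-0.10, adjusted p = 0.0535), which passed as lower with DESeq2 and with limma-voom. Med27 had -0.15 (adjusted p = 0.142), and Med17, the central subunit of the head, 0.09. All 11 head subunits rose per cell (61.1% of all genes did), and 8 did without WT 2, 3 and 4 (48.2% of all genes). The weakest of these calls was Med27 (0.29, adjusted p = 0.048, edgeR), which did not pass with limma-voom (adjusted p = 0.0609), with the replicate block (adjusted p = 0.0645) or when WT 1, WT 2, WT 5, dKO 2, dKO 3 or dKO 4 was left out (adjusted p = 0.0562 to 0.197).

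The kinase module binds Mediator reversibly through Med13 and Med12. Med13 was at 311 ± 7.90 CPM in WT and 290 ± 9.78 CPM in dKO (-0.10, adjusted p = 0.0558, edgeR), and Med12 at 88.9 ± 3.89 and 83.4 ± 8.35 CPM (-0.09, adjusted p = 0.325). Med13 passed as lower with DESeq2, with a mean count of at least 50, and with upper quartile or total count scaling. It also passed without WT 5 or without dKO 1, but in no other alternative. Med12 is X-linked and was lower in the Xist-high than in the Xist-low libraries of both groups. In WT it was at 84.75 to 86.41 CPM in the Xist-high and 87.87 to 94.68 CPM in the Xist-low libraries. In dKO it was at 73.73 to 86.52 CPM in the Xist-high libraries and 93.15 CPM in the only Xist-low library. With Xist level as a term its relative fold change was -0.05 (adjusted p = 0.609, edgeR). The summed level of the kinase module contains Med12. Of the 5 other module genes, Cdk19, a paralog of the kinase Cdk8, fell from 80.6 ± 6.65 to 61.9 ± 5.41 CPM (-0.38, adjusted p = 0.00285, edgeR; -0.26 and adjusted p = 0.121 without WT 2, 3 and 4). Its per-cell fold change was 0.05 (adjusted p = 0.71). Med13l, the paralog of Med13, fell as well (-0.20, adjusted p = 0.0219, edgeR; -0.10 and adjusted p = 0.368 without those 3 libraries). Over all genes, 12.0% were called lower in the relative fit of all 9 libraries. Cdk8 had 0.06 (adjusted p = 0.443) and the cyclin Ccnc 0.13 (adjusted p = 0.0893). The neuronal and erythroid marker sums given above were also lower in dKO, and their part in these falls was not tested.

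Paralog balance was compared as the log2 ratio of counts within a library for 7 pairs. Cdk8 over Cdk19 was -0.171 ± 0.185 in WT (n = 5) and 0.263 ± 0.214 in dKO (n = 4), with an exact permutation p of 0.0317 (two-sided, 0.139 after Benjamini-Hochberg adjustment over the 7). In 3 of 4 dKO libraries it was above every WT library, and WT 1 at 0.072 lay above dKO 4 at -0.012. Taf4a over Taf4b was 3.337 ± 0.300 and 2.914 ± 0.161 (exact permutation p = 0.0397, adjusted 0.139). The other 5 pairs (Med12, Med13, Taf5, Taf6 and Taf9 with their paralogs) had differences of -0.060 to 0.090 and adjusted exact permutation p-values of 0.407 to 0.849, so no pair passed the correction.

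Levels per kilobase placed the members over a 19.8-fold range in WT, around a median of 24.6 CPM per kb. Annotated transcript length enters each of these values, and for Tbp the matched transcript is far longer than its coding part. Highest were Taf9 (78.7 CPM per kb, shared with Ak6), the small TFIIA subunit Gtf2a2 (76.7), Polr2m (70.9), Polr2j (58.1), Polr2b (51.8) and Med8 (50.7). Lowest were Taf3 (3.99), Polr2l (4.19), Med26 (4.75) and Tbp (5.18). Polr2a was the lowest of the Pol II-specific subunits, at 18.1 in WT and 15.3 in dKO. The order of the 67 genes was nearly the same in both groups (Spearman's rho across genes 0.988; genes are not independent replicates), and the farthest move in rank was that of Med24, from 14 to 24.

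Promoter sequences of 300 bases (250 before and 50 after the start) were found in the RefSeq table for 57 of the 67 genes, 68 windows in all, and for 7 of the 11 genes called in the relative fit. Motifs were searched as exact letters on both strands. The ETS core CCGGAAG occurred in 30.9% of the members' windows, 8.86% of all 32851 windows of this length and 15% of the 13638 windows of genes tested here. The NRF1 core GCATGCGC occurred in 13.2%, 2.71% and 4.75%, the YY1 core AAGATGGC in 8.82%, 2.75% and 3.75%, and the E-box CACGTG of Myc and related factors in 16.2%, 7.15% and 9.55%. The GC box GGGCGG was in 63.2%, 35.7% and 60.9%, the CCAAT box in 32.4%, 37.4% and 37.3%, and TATAAA in 16.2%, 13.6% and 7.33%. GGAATG, the core bound by the TEAD factors through which YAP and TAZ act, was in 10.3%, 14.7% and 12.4%. None of these motifs contains another on either strand, CACGTG reads the same on both, and windows of the same gene can overlap. Of 8 windows of genes that rose, 6 held a GC box and 1 the TEAD core, and the Polr2a window was the only one of a gene that fell. These shares describe letters in the windows and carry no test.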

How the data were processed

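Whole-number read counts per gene symbol were deposited by the authors, 1 file per library, without normalization. Per the submitters' processing notes, STAR, HTSeq and the mm9 build were used; their versions, the annotation and the strand setting are not given in the sources. Per the labels' protocols, ERCC RNA was added by cell number, 350 ng of total RNA entered each library and paired reads were 100 bp long. The counter's own rows and the 92 spike-ins stayed out of gene totals.

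Genes kept by filterByExpr (17182, with 99.9% of gene counts) were tested in R 4.3.3 with edgeR 4.0.16 (quasi-likelihood, all 9 libraries, Benjamini-Hochberg over all genes tested). The relative fit used TMM, and the per-cell fit used spike-in totals as library sizes, which all genes share. SE was the log2 fold change over the root of F. Per-gene tests were checked on simulated counts. Spike-ins there followed library size almost exactly, so the check says nothing of spread in spike-in dose or cell number. It required recovery only of changes larger than that of any member. Alternatives were DESeq2 1.42.0, limma-voom (limma 3.58.1), other filters and scalings, a 1.2-fold threshold, leaving out libraries and a replicate block; a term for Xist level was added after seeing the data. Paralog ratios added 0.5 counts and used exact permutation tests. Each library was taken as 1 embryo, as the labels state; litters are not given, so p-values measure the spread between these libraries.

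The members and lists were chosen with earlier results of these data known. Named were Polr2a, Tbp, in each complex the 3 genes with the smallest adjusted p and the highest and lowest per kb, any gene called against its complex, and 2 genes per partner list; Polr2b, Polr2k, Polr2j, Med16 and the ratio pairs were added after their values were seen. Transcript length was the median of GENCODE M21 coding transcripts matched to RefSeq. Exons of 22 members overlap another gene there; none of the 11 genes called in the relative fit is among them, and without the strand setting such counts are uncertain.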

Additional observations from a re-analysis of the deposited data

Results flagged for a closer look

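In 6 of 86 groups of libraries, 1 library lay far from the others of its group; about 1 in 20 groups would do so by chance. Gtf2a2 was at 75.97 CPM in dKO 1 and 70.1 to 70.89 CPM in the other dKO libraries. Gtf2h2 was at 44.47 CPM in WT 1 and 38.47 to 39.92 CPM in the other WT libraries. Med14 was at 135 CPM in WT 4 and 127.8 to 129.5 CPM in the other WT libraries, still below every dKO library. Med13 was at 304.2 CPM in dKO 1 and 283.4 to 286.8 CPM in the other dKO libraries. The log2 count ratio of Taf5 to Taf5l was -0.32 in WT 1 and -0.152 to -0.086 in the other WT libraries. For Taf6 over Taf6l it was 1.425 in dKO 4 and 1.644 to 1.663 in the other dKO libraries.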

How the results depend on the processing

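The 64 members called higher per cell numbered 54 to 65 under the other tests, filters, scalings and library sets, 58 to 66 when a library was left out, and 42 when a change of at least 1.2-fold was tested. In the relative fit the 8 higher and 3 lower calls became 0 and 0 with the 1.2-fold test and 1 and 0 without WT 2, 3 and 4. Leaving out single libraries gave 3 (without dKO 1) to 10 higher, with 4 without WT 2 or WT 4 and 5 without WT 3, and 2 to 4 lower. Lower calls rose to 5 with DESeq2, a mean count of at least 50, upper quartile or total count scaling. The median relative fold change of 0.05 was 0.0359 with upper quartile scaling and 0.0141 without WT 2, 3 and 4. Gene counts per spike-in count stayed 0.45 apart on the log2 scale without those 3 libraries (exact permutation p = 0.0667). The cause of these changes was not tested; fewer libraries also mean less power. No value reversed its call. Med14 was lost in 1 of 21 alternatives, Gtf2e2, Med23, Med24 and Med25 in 2, Polr2a in 3, Gtf2h1 and Med21 in 5, Polr2m in 7, Polr2h in 8 and Taf7 in 11. Samples with the same replicate number did not deviate together (correlations of -0.27 to 0.14); with the replicate block, 6 members were higher and 3 lower in the relative fit and 63 higher per cell.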
